A study of Mus musculus with 4 samples.

Results

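Vestigial-like (Vgll) cofactors, the TEAD transcription factors they bind and the rival coactivators Yap1 and Wwtr1 were followed in whole mouse embryos at embryonic day (E) 9.0, in 2 wildtype embryos (labelled wt) and 2 homozygous mutants for the orphan nuclear receptor Nr6a1, formerly Gcnf (labelled Gcnf-/-, written Nr6a1-/- here). The 9 genes (Vgll2, Vgll3, Vgll4, Tead1, Tead2, Tead3, Tead4, Yap1 and Wwtr1) were taken with every probe set that the platform annotation gives to one of these symbols alone, which gave 16 of the 45037 probe sets tested and 9 of 18193 genes. The set was chosen by the values of Vgll2, which was lower in mutants, and Vgll3, which was higher, so the genotype difference of the members is a description and carries no test. Each array held RNA from 1 whole embryo. The mutants are homozygous for a constitutive mutant allele in every cell, the methods give the background of the line as C56BL/6 and a collection window that runs past the labelled stage, and no treatment is described.

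TEAD factors bind DNA through their TEA domain but need a partner to change transcription. Yap1 and Wwtr1 (Taz) are the partners that the Hippo kinase cascade keeps out of the nucleus, whereas Vgll proteins dock on an overlapping surface of TEAD through a short Tondu motif. Vgll2 is known from the somite myotome, skeletal muscle and pharyngeal region, Vgll3 from mesenchyme and muscle precursors, and Vgll4 as a widely expressed repressor of TEAD activity.

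The promoter sequences of Vgll2 and Vgll3, the pair on which the description turns, are shown first. Each runs from 250 bases before to 50 bases after the annotated start (RefSeq, GRCm38.p6, read 5′ to 3′ on the strand of the gene). Capitals mark the TEAD core GGAATG or its reverse complement CATTCC. Vgll2 lies at chr10:52022252-52022551 (plus strand) and Vgll3 at chr16:65814939-65815238 (plus strand).
Vgll2: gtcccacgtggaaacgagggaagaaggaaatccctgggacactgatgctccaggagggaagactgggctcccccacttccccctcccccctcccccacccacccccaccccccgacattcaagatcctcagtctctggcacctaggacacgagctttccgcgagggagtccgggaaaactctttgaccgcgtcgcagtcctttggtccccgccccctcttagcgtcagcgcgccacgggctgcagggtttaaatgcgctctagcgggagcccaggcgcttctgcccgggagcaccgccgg
Vgll3: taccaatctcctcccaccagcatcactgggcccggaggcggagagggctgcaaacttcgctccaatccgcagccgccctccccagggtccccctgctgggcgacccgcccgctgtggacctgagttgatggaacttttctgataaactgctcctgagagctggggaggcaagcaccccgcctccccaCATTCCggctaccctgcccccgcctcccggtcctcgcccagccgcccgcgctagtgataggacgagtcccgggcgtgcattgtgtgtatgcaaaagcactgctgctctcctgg
The Vgll3 window held 1 TEAD core, on the opposite strand and 63 bases before the start, and the Vgll2 window held none.

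The same letters occurred in the promoters of 5 of the 7 members that have an entry (Vgll3, Vgll4, Tead3, Yap1 and Wwtr1), and in 7 of their 10 windows, whereas Vgll2 and Tead2 had no match. Of all 32851 windows of this length in the table, 14.7% held the core on either strand, and of the 9690 windows with a GC content of 60% or more, 9.40% did. These shares are per window and cannot be set against the count of genes, since some genes have several starts. No share per gene was computed. The members' windows had a GC content of 61.3% to 75.3%, against a median of 52.7% over all windows. The matches with 12 bases on each side are shown so that they can be set side by side, from Vgll4 at chr6:114969268-114969297, the first start of Tead3 at chr17:28350970-28350999, Yap1 at chr9:8004720-8004749 and Wwtr1 at chr3:57576029-57576058, all on the minus strand.
Vgll4: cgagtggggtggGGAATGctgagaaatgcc
Tead3: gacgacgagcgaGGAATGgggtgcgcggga
Yap1: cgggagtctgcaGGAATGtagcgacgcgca
Wwtr1: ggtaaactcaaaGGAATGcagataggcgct
A second start of Tead3 had 3 matches, 2 of them with their first bases only 9 bases apart. Both annotated starts of Wwtr1 share 1 match, so its windows are not separate evidence. The extended half-site TCAAGGTCA, which Nr6a1 is known to bind, occurred on either strand in 0 of the 10 windows. It occurred in 0.423% of all windows and in 0.1445% of those with a GC content of 60% or more. With shares this low, nothing is read from the 0. A match of letters is a description of the sequence and not a measured binding site, and the absence of a match speaks only for the window searched. Tead1 and Tead4 had no entry.

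**Figure D1:**
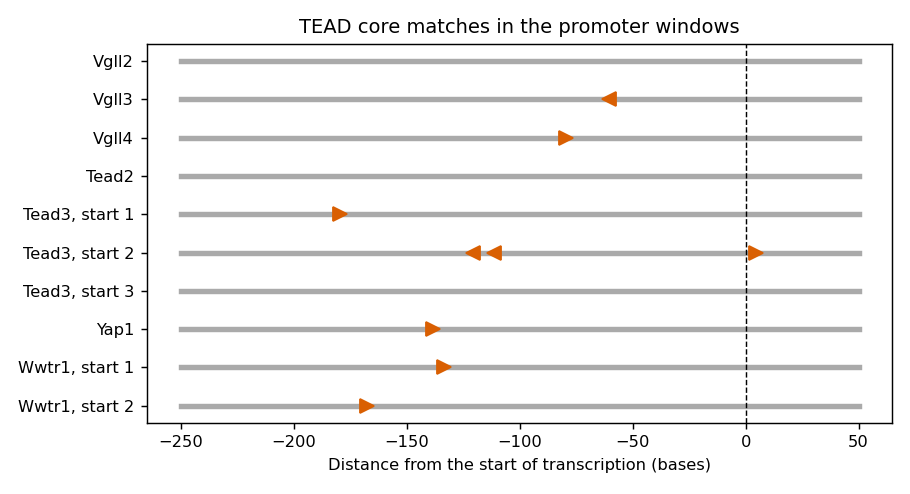
TEAD core matches (arrowheads, pointing right on the gene's own strand and left on the opposite strand) in the 10 promoter windows of 7 member genes, by distance in bases from the start of transcription (dashed line). The windows of Vgll2, Tead2 and the third start of Tead3 hold no match.

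Of the 9 genes, Vgll2 and Vgll3 passed the study's threshold, and they went opposite ways. A gene was called at a Benjamini-Hochberg adjusted p of 0.05 or lower in limma together with a change of at least 2-fold, and the brightest probe set stood for the gene. Vgll2 was called lower and Vgll3 higher, that is 2 of 9 members, against a background of 0.121% of all genes called lower, 0.423% called higher and 0.544% called in either direction. By probe set 4 of 16 were called, against 0.382% of all probe sets. Since this contrast chose the members, nothing is read from these counts. The median log2 fold change of the 9 genes was -0.04, beside -0.01 over all 18193 genes. Without wildtype replicate 1, wildtype replicate 2, mutant replicate 1 or mutant replicate 2, 0 of the 9 members were called, with a count over all probe sets of 0 to 9.

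Vgll2 had 1 probe set, whose signal (RMA log2 values throughout) was 8.76 and 8.97 in the wildtype embryos and 7.35 and 6.98 in the mutants. Both mutants lay below both wildtype embryos, and the gap between the genotypes was wider than that within either. The group means were 8.87 ± 0.15 and 7.17 ± 0.26 (SD, n = 2 each), a log2 fold change of -1.70 ± 0.15 (moderated standard error, SE) or a signal 3.25-fold lower. In a whole embryo, fewer cells that express a gene and less RNA per cell cannot be told apart. According to the paper, embryos without Nr6a1 were found to develop more slowly once somites began to form, and did not complete turning. No somite counts are described for the array embryos, so a difference in stage cannot be told apart from genotype for any gene here.

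Vgll3 had 3 probe sets, and each of them separated the genotypes in the same direction. On the brightest, signals were 6.45 and 6.70 in wildtype and 8.85 and 8.54 in mutants, a log2 fold change of 2.12 ± 0.14 (SE), or 4.34-fold higher. This probe set is of a design class that can match several transcripts. The next, which is not of that class, read 5.89 and 6.19 in wildtype and 8.62 and 8.30 in mutants, and its log2 fold change was 2.42 ± 0.15. On the third, signals were 6.05 and 5.91 in wildtype and 7.54 and 7.21 in mutants, with a log2 fold change of 1.39 ± 0.13. The 3 probe sets therefore agreed in direction and ranged from 2.62-fold to 5.36-fold in size, and they were hybridised with the same RNA, so they are not replicates. RMA values carry no detection call, so the wildtype signal does not show whether Vgll3 was expressed at all in wildtype embryos.

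The embryos of a genotype also differed a little from each other. Mutant replicate 1 had the higher signal of the mutants for Vgll2 and for all 3 Vgll3 probe sets, by 0.31 to 0.37 on the log2 scale. Of the wildtype embryos, replicate 2 was the higher for Vgll2 and for the 2 brighter Vgll3 probe sets. Between embryos of 1 genotype, Vgll2 and Vgll3 thus lay higher or lower together, apart from the third Vgll3 probe set in wildtype, whereas between genotypes they went opposite ways. Each genotype has only 2 embryos, so this does not show that the genes vary together, and nothing is read from it.

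Vgll4, the repressor of the family, stood at 9.01 and 9.32 in wildtype and 9.11 and 9.21 in mutants. The mutants lay between the wildtype embryos, and the log2 fold change was -0.01 ± 0.12 (SE; 95% interval -0.32 to 0.30).

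**Figure D2:**
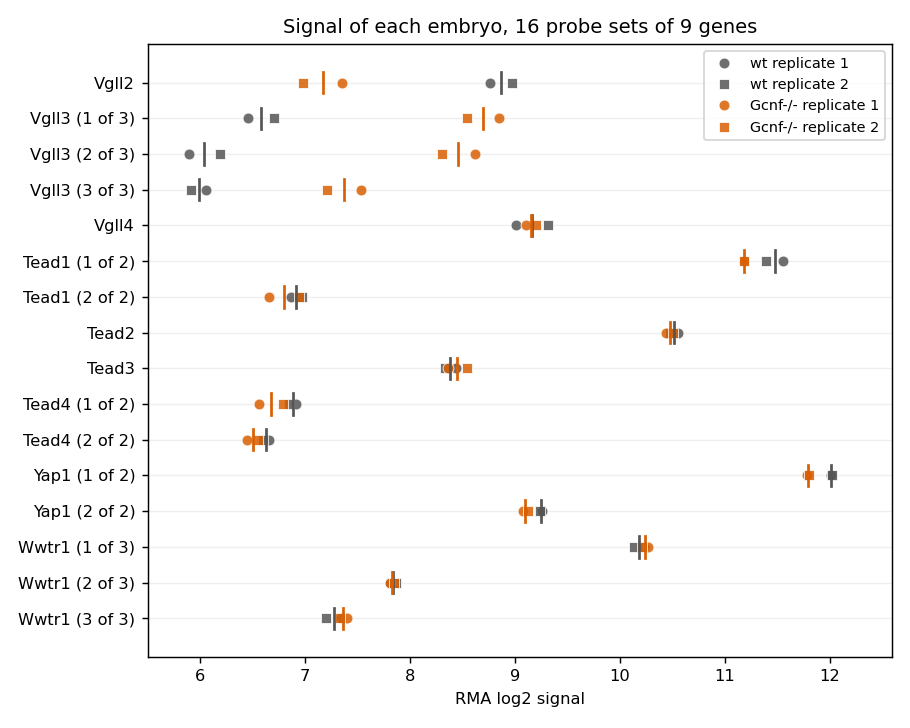
Each row is 1 of the 16 probe sets of the 9 genes, brightest first within a gene, and the horizontal axis is the RMA log2 signal. Grey marks wildtype and orange Nr6a1-/- (labelled Gcnf-/-), a circle stands for replicate 1, a square for replicate 2 and a short vertical line for the mean of the genotype. Vgll2 and the 3 Vgll3 probe sets show wide gaps between genotypes, and Tead2, Tead3, Vgll4 and Wwtr1 overlap.

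The DNA-binding partners differed little. The 4 TEAD genes were measured by 6 probe sets, with log2 fold changes between -0.29 and 0.06. Of these genes 0 were called, where 0.544% of all genes were called in either direction, so nothing is read from that count. Tead1, a TEAD factor needed for heart growth, had the widest difference of the 4. Its brighter probe set read 11.56 and 11.40 in wildtype and 11.19 and 11.19 in mutants, which do not overlap, a log2 fold change of -0.29 ± 0.08 (SE; 95% interval -0.50 to -0.08). On its other probe set the genotypes overlapped and the difference was -0.12 ± 0.11. The probe sets of Tead1 thus differed in size but not in direction.

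Tead2, the TEAD gene best known from the early neural plate and mesoderm, stood at 10.55 and 10.48 in wildtype and 10.44 and 10.51 in mutants. Tead3 stood at 8.43 and 8.34 in wildtype and 8.36 and 8.54 in mutants. The genotypes overlapped for both, with log2 fold changes of -0.04 ± 0.07 and 0.06 ± 0.09. Tead4, required for trophectoderm in the blastocyst, read 6.92 and 6.85 in wildtype and 6.56 and 6.79 in mutants on its brighter probe set. The mutants lay below the wildtype embryos by a margin of 0.06 between the nearest pair. Its log2 fold changes were -0.21 ± 0.10 and -0.12 ± 0.08 on 2 probe sets, with 95% intervals that include 0.

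Of the Hippo-regulated coactivators, Yap1 read 12.01 and 12.02 in wildtype and 11.79 and 11.81 in mutants on its brighter probe set. The replicates were close together and the genotypes did not overlap, with a log2 fold change of -0.22 ± 0.07 (SE; 95% interval -0.39 to -0.05), a signal 1.17-fold lower. The second Yap1 probe set gave -0.15 ± 0.07. Wwtr1 stood at 10.23 and 10.13 in wildtype and 10.27 and 10.21 in mutants, and its 3 probe sets had log2 fold changes of -0.01 to 0.09, with overlapping genotypes on each.

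For the 7 members other than Vgll2 and Vgll3, the 95% intervals of all 12 probe sets ran from -0.50 to 0.30, so the bounds furthest from 0 were 1.41-fold lower and 1.23-fold higher. Their differences were short of 2-fold on 12 of 12 probe sets. The share of all probe sets short of 2-fold was not computed. Of all probe sets, 0.382% were called at adjusted p and 2-fold, so nothing is read from the 12. Over the 9 genes, 4 had mutants below both wildtype embryos, 1 had mutants above and 4 overlapped, whereas 30.4% of all genes separated downward and 26.2% upward. Nothing is read from this count either.

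**Figure D3:**
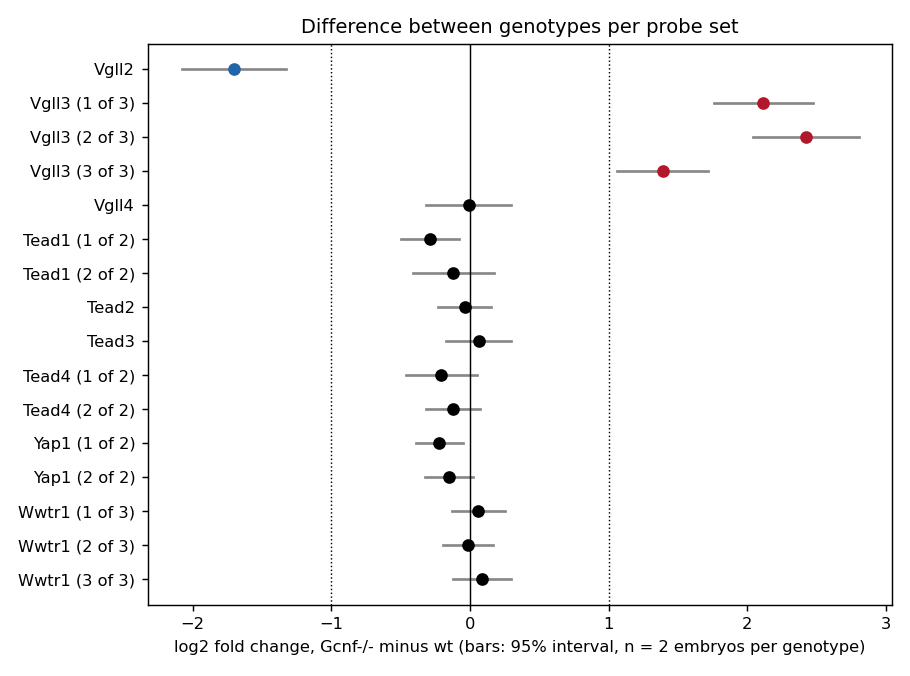
Difference of Nr6a1-/- minus wildtype as a log2 fold change (horizontal axis) for the 16 probe sets, with bars for the 95% interval of limma and dotted lines at a 2-fold change; blue is Vgll2, red is Vgll3 and black the other members. The black points lie between -0.29 and 0.09, inside the dotted lines.

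The genes most like Vgll2 and Vgll3 were sought by the root mean square difference of mean-centred log2 values over the 4 arrays, which favours genes with a genotype difference of the same size. Closest to Vgll2 were Nppa, the precursor of atrial natriuretic peptide (0.0935), the Fc receptor gene Fcgr3 (0.137) and Dmrta1 (0.163). Closest to Vgll3 were Nfib, a nuclear factor I transcription factor (0.0943), Sh3gl3 (0.111) and Cpt1a, which takes fatty acids into mitochondria (0.118). With 4 arrays in 2 groups, likeness of this kind is a description only.

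The upstream Hippo pathway was then examined in a list of 24 kinases, scaffolds and inhibitors of Yap1 and Wwtr1, of which 23 were measured. In limma 0 were called lower and 0 higher, and 7 had an unadjusted p under 0.05, where 23.8% of all genes did. Of the 23, 14 were below wildtype and 9 above, and the median log2 fold change was -0.07 beside -0.01 over all genes. Its widest differences were Taok3 at 0.41 ± 0.10 (limma adjusted p = 0.120), Frmd6 at 0.25 ± 0.08 (0.169) and Taok1 at 0.23 ± 0.08 (0.205). Taok3 and Taok1 are kinases that can activate the Hippo kinases, and Frmd6 is a scaffold at the cell cortex. Their signals are given as values since none passed.

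Widely used response genes of Yap1, Wwtr1 and TEAD were mixed in direction. Of 22 listed and measured, 12 were below and 10 above wildtype with a median of -0.04. Limma called 0 lower and 0 higher (8 at an unadjusted p under 0.05, where 23.8% of all genes were). Ankrd1, a nuclear ankyrin repeat protein that is also abundant in heart muscle, read 10.03 and 9.57 in wildtype and 9.22 and 8.66 in mutants, a log2 fold change of -0.86 ± 0.24 (limma adjusted p = 0.147). Igfbp3, which binds insulin-like growth factors, went the other way, from 8.93 and 9.18 to 9.78 and 9.69, at 0.68 ± 0.11 (limma adjusted p = 0.0659). Ccn2, a matricellular protein, stood at -0.52 ± 0.16 (limma adjusted p = 0.166). Ccn1, named after its values were seen because it is a standard response gene, stood at 0.15 ± 0.14 with overlapping genotypes. Amotl2, Lats2 and Ptpn14 belong to both lists. The remaining TEAD-binding cofactors listed, Fam181b (-0.46 ± 0.14), Vgll1 (-0.25 ± 0.15) and Fam181a (-0.17 ± 0.07), all stood below wildtype, and limma called 0 of 3 (2 at an unadjusted p under 0.05).

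Of the tissues where Vgll2 is known to be expressed, skeletal muscle and the pharyngeal region had list members on both sides of wildtype. Somite markers, of which 10 of 11 measured lay below wildtype, are given further on. Of 21 measured skeletal muscle genes, 11 lay below and 10 above wildtype with a median of -0.002. Limma called 0 lower and 0 higher (6 at an unadjusted p under 0.05, where 23.8% of all genes were). Eya1, a phosphatase that acts as a transcriptional cofactor, stood at -0.93 ± 0.13 (limma adjusted p = 0.0541), Tcf21, a regulator of head muscle and visceral mesenchyme, at 0.74 ± 0.11 (0.0620) and Six4 at -0.52 ± 0.11 (0.103). The myogenic determination genes Myf5 and Myod1, named after their values were seen, stood at 0.10 ± 0.13 and 0.02 ± 0.08. Both were dim, with wildtype means of 5.40 and 5.41, where the medians of the arrays were 6.82 to 6.85. Without detection calls, these differences near 0 do not show that either gene was expressed or unchanged. Of the 21 muscle genes, 10 were left when brighter probe sets alone were used. Of 13 measured pharyngeal arch and pouch genes, 8 lay below and 5 above wildtype with a median of -0.02, and limma called 0 (3 at an unadjusted p under 0.05). Tbx1, a T-box gene of pharyngeal endoderm and mesoderm, passed the adjusted p alone, as 1.40% of all genes did, and fell short of 2-fold. Its signals were 8.32 and 8.30 in wildtype and 7.70 and 7.62 in mutants, a log2 fold change of -0.66 ± 0.07 (limma adjusted p = 0.0397). Pax1 stood at -0.46 ± 0.18 and Hoxa3 at -0.29 ± 0.13 without passing. Pax1 is also among the somite markers, where its value is the median, so these lists are not separate.

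Marker lists of some tissues lay mostly below or mostly above wildtype, where the median over all genes was -0.01, and few of their genes were called. The share of all genes below or above wildtype was not computed. Of 11 measured somite markers, 10 lay below wildtype with a median of -0.46. Their summed signal was 11.79 to 12.01 in wildtype and 11.38 to 11.45 in mutants. Summed signal here is the log2 of the unlogged signals added over a list. The brightest genes therefore weigh most in it, and it does not describe every gene of a list. Limma called 1 of the somite markers lower, Dmrt2, a regulator of early myotome, at -1.13 ± 0.10 (limma adjusted p = 0.0305). Uncx and Meox2, at -1.17 ± 0.36 and -1.05 ± 0.22, did not pass. With 1 array left out the somite median lay lowest at -0.72 without wildtype replicate 2. All 11 measured primitive red cell markers lay above wildtype (median 0.63, summed signal 16.54 to 16.60 in wildtype and 16.68 to 16.76 in mutants, 0 called, with Alas2 at 0.98, Hemgn at 0.96 and Nfe2 at 0.90). Of 15 heart muscle markers, 11 lay above (median 0.34, summed signal 15.29 to 15.46 and 15.71 to 15.78), with Myl3 called higher at 1.24 ± 0.14 (limma adjusted p = 0.0404), Nppa called lower at -1.84 ± 0.18 (0.0338) and Nppb at -1.19 ± 0.21 (0.0820).

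Of 11 yolk sac endoderm markers, 9 lay below, with overlapping summed signals (median -0.19, summed signal 16.82 to 16.97 and 16.65 to 16.83, 0 called, Hnf4a at -0.47, Dab2 at -0.39 and Apoa1 at -0.27). The 9 trophoblast and decidua markers (median 0.10, summed signal 11.45 to 11.52 and 11.39 to 11.54, 0 called, Krt7 at -1.45, Tfap2c at 0.99 and Dcn at 0.93) and the 9 neural tube markers (median -0.14, summed signal 12.65 to 12.89 and 12.65 to 12.73, 0 called, Olig2 at -0.80, Sox1 at 0.46 and Nkx6-1 at -0.39) overlapped between genotypes in their summed signal too. Tfap2c passed the adjusted p alone (limma, adjusted p = 0.0458) and fell short of 2-fold. Whether cell makeup or a difference in stage has a part in the Vgll2 and Vgll3 differences was not tested.

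**Figure D4:**
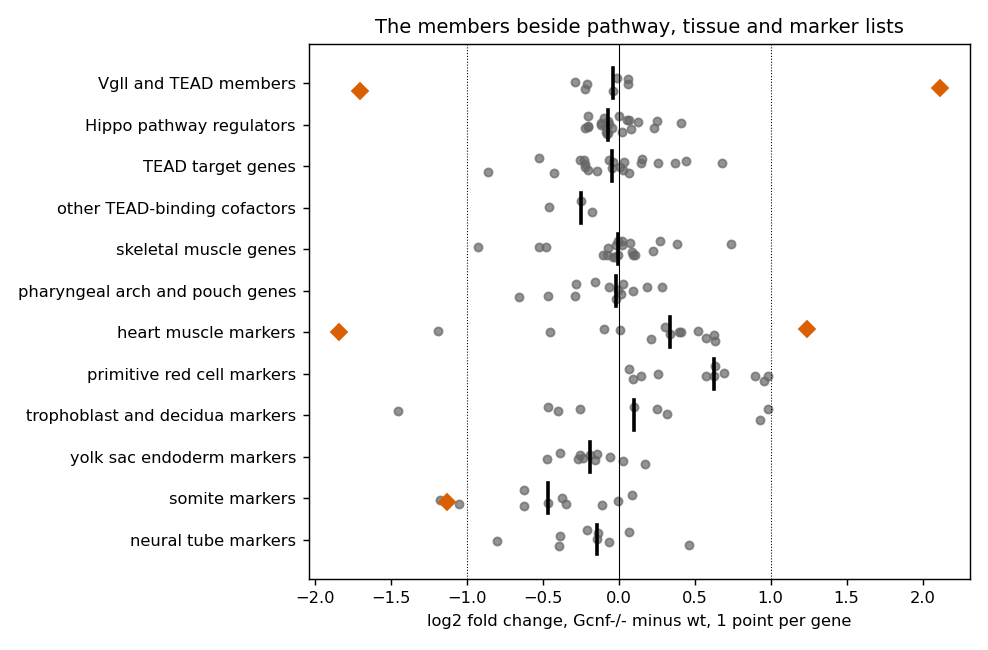
Difference of Nr6a1-/- minus wildtype as a log2 fold change (horizontal axis) for each gene of the members, pathway, tissue and marker lists (points; orange diamonds were called), with black bars for medians and dotted lines at 2-fold. The member median is -0.04 although Vgll2 and Vgll3 lie outside the dotted lines, and the somite and primitive red cell medians are -0.46 and 0.63.

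Some facts of the arrays bear on these values. Wildtype replicate 1 was female by Xist (13.11 against 6.44 to 6.68), and the other embryos were male. By RefSeq 0 of the 9 members lie on the X or Y chromosome. Probe sets for 18S ribosomal RNA averaged 9.45 and 9.99 in wildtype replicates 1 and 2 and 10.83 and 10.74 in the mutants, 1.06 higher in mutants on the log2 scale. The poly-A spike controls averaged 8.96 in wildtype replicate 1 and 9.59 to 9.66 on the other arrays. The part of either in the member values was not tested. Nr6a1 itself averaged 12.01 in mutants against 11.67 in wildtype on its brightest probe set. Across its 5 probe sets the mutant mean was higher by 0.05 to 0.56, the genotypes did not overlap on 4, and 0 were called. Where its probes lie relative to the deletion is not known here, so they do not check the labels.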

How the data were processed

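RNA of 4 whole embryos was hybridised to 1 Affymetrix mouse expression array each, and the authors deposited log2 signals made with RMA, which corrects background, quantile normalises the arrays and summarises each probe set. The RMA version and the build behind the array's probe mapping are not stated in the sources used. Shifts shared by most transcripts are removed by quantile normalisation, and unspecific hybridisation shrinks the fold changes of dim probe sets. Of 45101 probe sets, 64 controls were left out. The platform annotation named 34945 probe sets with a single symbol, 932 with several and 9160 with none, and 99.4% of the single symbols matched RefSeq by gene identifier, changing 0.

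The linear model of limma 3.58.1 (R 4.3.3; lmFit, eBayes) held genotype alone, and p-values were adjusted by Benjamini-Hochberg over 45037 probe sets and read at the thresholds of the study (adjusted p of 0.05 and 2-fold). SE and 95% intervals are limma's moderated ones and rest on the spread shared across probe sets (prior standard deviation 0.0849, 3.16 prior degrees of freedom). With 2 arrays per genotype, an exact permutation test cannot reach a two-sided p below 0.333. The number of arrays limits the precision. Replicates were taken as separate embryos. A gene was represented by its brightest probe set. The procedure was tested on simulated data with independent normal values drawn under limma's own assumptions. The simulation held no differences in stage, sex or RNA quality, so it does not speak for these arrays.

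The members and gene lists were chosen with earlier results of these data known. Named were all member probe sets, called list genes or else enough of the widest differences to give 3 genes a list, and the 3 genes nearest to Vgll2 and to Vgll3 (no Rik or Gm names, Xist, Tsix or Y-linked genes). The alternatives tried were a block for the replicate number, leaving out each array, brighter probe sets alone, repeated quantile normalisation, median centring, an intensity trend, robust eBayes, no fold threshold, no probe sets that can share sequence, and the mean of probe sets. Promoters of 32851 starts came from RefSeq (GRCm38.p6) and were searched as exact letters on both strands.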

Additional observations from a re-analysis of the deposited data

How the results depend on the processing

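With the replicate number as a block, 0 members were called, as were 0 of all probe sets against 172 without it, so that this count says nothing of the members in particular, and the log2 fold changes of Vgll2 and Vgll3 were -1.70 and 2.12. Embryos with the same number showed a correlation of 0.06 between their deviations from the group means across probe sets and are not taken as pairs, and the block leaves 1 residual degree of freedom. Leaving out 1 array in turn gave 0 to 0 called members, from fewer samples by construction, and put the lowest values of Vgll2 and Vgll3, at -1.89 and 1.96, where mutant replicate 1 was omitted and the highest, at -1.52 and 2.27, where mutant replicate 2 was; these fits assume that a lone embryo varies like the other genotype. Without probe sets that can share sequence, Vgll3 moved to 2.42, since another probe set then stands for the gene. With no fold threshold, 1 pharyngeal gene was called, Tbx1, by construction. In the 8 settings other than the block and the omitted arrays, the called members were again Vgll2 and Vgll3. The lists of Hippo regulators, TEAD targets, skeletal muscle genes and remaining cofactors had 0 called there. For TEAD targets and skeletal muscle genes this rested in part on the 2-fold threshold. The adjusted p alone was passed by 3 and 3 of them with brighter probe sets and with the intensity trend. With repeated quantile normalisation 1 and 2 passed it. The share over all genes was not computed for these settings. Calls in all numbered 139 to 439 probe sets, or 113 genes where the mean of probe sets was used. These settings reuse the same 4 arrays and the contrast that chose Vgll2 and Vgll3, so the repeated calls are no independent support. With the block or an array omitted, 0 to 9 probe sets were called in all, and counts of 0 there do not speak for stability. Vgll4, which was near 0, kept its sign in 7 of 10 settings (-0.16 to 0.15), and Tead3 in 8 of 9 (-0.03 to 0.15). List medians near 0 depended on single arrays. Without wildtype replicate 1 the medians were -0.04 for Hippo regulators, -0.02 for TEAD targets, -0.12 for yolk sac and -0.01 for neural tube markers, and without wildtype replicate 2 they were -0.09 for pharyngeal genes and -0.31 for neural tube markers. The trophoblast median was -0.06 without mutant replicate 2 and 0.23 without mutant replicate 1, and the skeletal muscle median changed sign between settings (-0.02 to 0.04). The 2 arrays per genotype and the lack of detection calls limit what can be said of small differences and dim signals.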
